A study of Mus musculus with 4 samples.

Results

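The chemokines and chemokine receptors were followed in mouse kidney after an injection of vancomycin or saline given at 1 of 2 times of day. The members were all genes whose name on the array was that of a CC, CXC, CX3C or C chemokine, a chemokine receptor, an atypical chemokine receptor (Ackr) or Ccrl2, and they numbered 56 of 37074 gene names. The 34 ligands, 17 typical receptors and 5 atypical or related receptors were represented by 78 probes. Of these 56, 40 rose above background by the scanner's test on 1 array or more, called well above background here, and 29 did so on all 4. The rule for members used names alone and no measured value, but it was set with earlier results of these data known.

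All 4 groups were kidneys of ICR mice, an outbred strain, collected 1 day after injection. Mice received saline or vancomycin at either ZT2 or ZT14, where ZT, Zeitgeber time, is counted in hours of the lighting cycle. Vancomycin is a glycopeptide antibiotic whose use is limited by kidney toxicity, and the study asked how renal gene expression differs between saline and vancomycin. Each group had 1 array, and the labels do not say whether an RNA came from 1 mouse or a pool, so no difference below has a replicate error. The slides divided the arrays by injection time, and the place on the slide divided them by treatment (saline at 1_1, vancomycin at 1_2). Slide and time, and place and treatment, cannot be told apart.

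Chemokines are small secreted or membrane-bound proteins that bind glycosaminoglycans and guide leukocytes along gradients through G protein-coupled receptors. CCR2 and its ligands bring monocytes out of the blood, CX3CR1 marks resident macrophages and patrolling monocytes, CXCR3 acts on activated T cells and natural killer cells, and CXCR2 acts on neutrophils. In the injured kidney tubular cells and resident macrophages are known sources of CCL2, CCL5 and CXCL1, and atypical receptors scavenge ligands without G protein signalling.

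Signals are given as a percent of the 75th percentile of the processed signal of the same array, and differences as log2 of vancomycin over saline. Paired values are given with saline first and vancomycin second. A value is a bound, written "at least", where 1 of the arrays compared was not well above background. A probe's signal also depends on its own sequence, so levels were compared between arrays and never between genes. Since each array measured the RNA of a whole piece of tissue, fewer cells of a type and less RNA per cell cannot be told apart.

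The gene starts of 4 members show the sequence context of the family. The 130 bases before the start were taken from RefSeq promoters of mouse build GRCm38.p6, printed 5′ to 3′ on the strand of the gene, with matches to a nuclear factor kappa B (NF-kB) or interferon-stimulated response element (ISRE) motif in capitals. Cxcl1 (chr5:90891115-90891244, plus strand), Cxcl10 (chr5:92348890-92349019, minus strand) and Ccl9 (chr11:83578637-83578766, minus strand) carried NF-kB matches, that of Ccl9 on the strand opposite to the gene. In Ccr2 (chr9:124102053-124102182, plus strand) the match was to the ISRE core, also on the opposite strand.
Cxcl1: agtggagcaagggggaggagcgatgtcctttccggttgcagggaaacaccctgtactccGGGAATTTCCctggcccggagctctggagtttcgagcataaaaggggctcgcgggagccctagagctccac
Cxcl10: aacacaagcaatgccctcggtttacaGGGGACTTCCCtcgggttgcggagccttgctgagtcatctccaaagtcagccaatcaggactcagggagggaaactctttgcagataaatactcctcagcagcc
Ccl9: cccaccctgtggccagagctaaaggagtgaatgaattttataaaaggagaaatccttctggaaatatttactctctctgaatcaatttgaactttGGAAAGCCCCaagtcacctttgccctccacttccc
Ccr2: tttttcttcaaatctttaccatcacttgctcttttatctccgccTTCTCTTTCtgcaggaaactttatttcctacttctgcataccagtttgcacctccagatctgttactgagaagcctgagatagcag
These 4 were chosen because they are a neutrophil ligand, an interferon-inducible ligand, a monocyte ligand and a monocyte receptor. Of the 56 members, 41 had a promoter in the table. In the 250 bases before the start, on either strand, the NF-kB motif matched in 11 of the 41, against 5.67% of 27025 genes. The ISRE core GAAANNGAA matched in 8 of the 41, against 8.18% of genes, and in Cxcl10 it lay further from the start than the printed bases. A match describes letters and is neither a binding site nor a cause. Cxcl1 and Ccl9, both with an NF-kB match, were lower with vancomycin by 2-fold or more at ZT2, whereas Cxcl10, also with a match, differed by -0.34 there.

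With vancomycin at ZT2, 13 of 36 members with a value were lower than saline by 2-fold or more, against 3.86% of all genes, and 0 of 36 were higher by that much, against 1.96%. At ZT14 the lower members numbered 6 of 39, against 2.85% of all genes, and the higher ones 0 of 39, against 1.6%. The 13 members at ZT2 were the ligands Ccl5, Ccl8, Ccl9, Ccl12, Ccl17, Ccl19, Cxcl1, Cxcl9 and Cxcl13 and the receptors Ccr2, Ccr7, Ccr10 and Cxcr3. The 6 at ZT14 were Ccl4, Ccl5, Ccl12, Cxcl14, Ccr2 and Cxcr3. At both times Ccl5, Ccl12, Ccr2 and Cxcr3 were lower by 2-fold or more, 4 of 35 members with values at both times, against 1.17% of all genes.

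The median difference of the members was -0.83 at ZT2 (36 members, quartiles -1.44 and -0.25), beside 0.00 over all genes. At ZT14 the median was -0.37 (39 members, quartiles -0.81 and 0.07), beside 0.01 over all genes. Members lower by any amount at both times numbered 22 of 35, against 28.4% of all genes, and members higher at both times 3 of 35 (Ackr3, Ccl25 and Ccr8), against 29.0%. Both vancomycin arrays lay below both saline arrays for 16 of 40 members, against 11.8% of all genes, and above both for 2 of 40 (Ccl25 and Ccr8), against 10.8%. Ligands and typical receptors gave like medians at ZT2, -0.98 over 23 ligands and -0.90 over 10 receptors. At ZT14 these medians were -0.46 over 24 ligands and -0.18 over 12 receptors.

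Of the 36 members with a value at ZT2, 29 were dim, with a mean signal under the 75th percentile. Over all such dim genes the quartiles of the ZT2 difference were -0.32 and 0.29, against -0.22 and 0.21 over all genes. Among the dim genes, 13 of 29 members were lower by 2-fold or more at ZT2, against 5.94% of such genes, and 5 of 32 at ZT14, against 4.17%. With normexp background correction, whose offset of 50 draws dim signals together by construction, the lower members numbered 3 at ZT2 and 1 at ZT14. No share of all genes under normexp is given here, so these counts cannot be set against the shares above. Of the 4 members lower by 2-fold at both times, Ccl5 alone kept that size with normexp, at -1.08 and -1.61. Ccl12 then differed by -0.52 and -0.41, Ccr2 by -0.70 and -0.51, and Cxcr3 by -0.41 and -0.49. With probes well above background on all 4 arrays alone, the ZT14 count was 3.

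limma, fitted over all 24638 genes with injection time as a term, left 1 residual degree of freedom. With 1 array per group, that residual is only the gap between the vancomycin differences at the injection times. limma draws it towards a spread shared by all genes, a prior SD of 0.168 with 1.86 degrees of freedom. An SE of 0.14, given for several genes below, came mostly from that prior. The SE and p values of limma therefore do not measure spread between animals. limma used the signals as read, without bounds, also those not well above background. Ccl3, Ccl12 and Ccr2, counted as lower below, had such signals. No member passed an adjusted p of 0.05, 0 of 40, and 0.0% of all genes did. At an unadjusted p under 0.05, limma placed 13 of 40 members lower with vancomycin, against 5.35% of all genes, and 0 of 40 higher, against 3.21%. The smallest adjusted p of a member was 0.52, and over the alternative settings it ranged from 0.087 to 1.0.

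**Figure D1:**
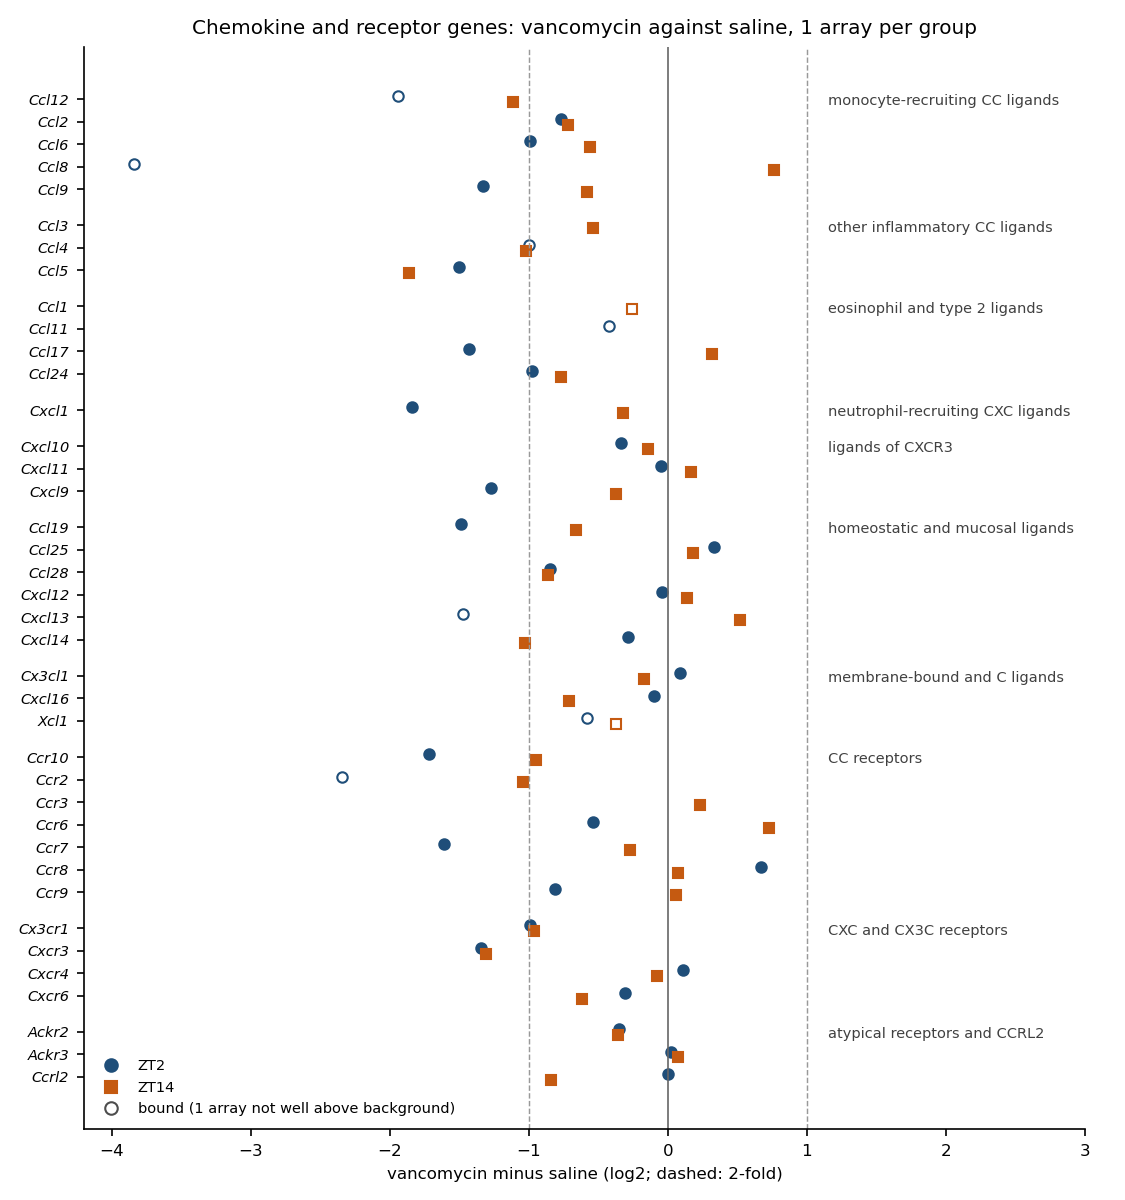
Vancomycin minus saline (log2, x axis) for 39 of the 40 members well above background on at least 1 array, grouped by role, with circles for ZT2 and squares for ZT14; open symbols are bounds, and a missing symbol means that neither array was well above background. Most symbols lie left of 0, the dashed lines mark 2-fold, and no symbol passes 2-fold on the right.

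Among the ligands that recruit monocytes, Ccl7 was not well above background on any array. Of the 5 measured, 4 were lower with vancomycin at both times, beside 28.4% of all genes. Their median differences were -1.33 at ZT2 and -0.58 at ZT14. Ccl2, the main ligand of CCR2, read 28.2% with saline and 16.5% with vancomycin at ZT2, and 14.7% with saline and 8.89% with vancomycin at ZT14. Each vancomycin array was thus lower than the saline array of its own slide, by -0.77 and -0.72, but the groups overlapped across slides. Ccl12, a mouse CCR2 ligand close to Ccl2, read 8.61% with saline and 2.00%, not well above background, with vancomycin at ZT2, and 8.92% and 4.13% at ZT14. That is at least 3.83-fold lower at ZT2 and 2.16-fold lower at ZT14, with no overlap between the groups.

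Ccl9, a ligand of CCR1, read 20.6% with saline and 8.20% with vancomycin at ZT2, and 12.3% and 8.22% at ZT14. Both vancomycin arrays were below both saline arrays, with differences of -1.33 and -0.58. Ccl6, also a ligand of CCR1, read 57.9% and 29.2% at ZT2 and 48.1% and 32.7% at ZT14, again without overlap, with differences of -0.99 and -0.56. Ccl8, which acts through CCR8 in mice, differed in direction between the times. It read 32.2% with saline and 2.24%, not well above background, with vancomycin at ZT2, at least 14.3-fold lower, and 7.35% with saline and 12.4% with vancomycin at ZT14, 1.69-fold higher. The saline ZT2 array alone stood high, and the difference between the times was not tested.

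Among the inflammatory CC ligands Ccl3, Ccl4 and Ccl5, Ccl5 (RANTES), made by T cells, natural killer cells and stimulated tubular cells, read 52.3% with saline and 18.6% with vancomycin at ZT2. At ZT14 it read 109% with saline and 30.2% with vancomycin. Both vancomycin arrays lay below both saline arrays, 2.82-fold lower at ZT2 and 3.62-fold lower at ZT14. In limma the difference of Ccl5 over both times was -1.68 ± 0.17 (SE), with an unadjusted p of 0.0028 and an adjusted p of 0.52. Ccl4, a macrophage inflammatory protein, read 4.48% with saline at ZT2, 0.522%, not well above background, with vancomycin at ZT2, and 9.17% and 4.53% at ZT14. It was at least 1.99-fold lower at ZT2 and 2.02-fold lower at ZT14, and the groups overlapped, since the vancomycin ZT14 array read above the saline ZT2 array. A second probe of Ccl4 differed by -0.53 at ZT14. Ccl3, the related macrophage inflammatory protein, was measured at ZT14 alone, at 3.75% with saline and 2.58% with vancomycin, a difference of -0.54.

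The ligands tied to eosinophils and type 2 responses were dim. Ccl17, a ligand of CCR4 made by dendritic cells, read 18.3% with saline and 6.78% with vancomycin at ZT2, and 10% and 12.5% at ZT14. It was 2.70-fold lower at ZT2 and 1.25-fold higher at ZT14, and the difference between the times was not tested. Ccl24, an eotaxin, read 4.99% and 2.53% at ZT2 and 4.65% and 2.72% at ZT14, so both vancomycin arrays were below both saline arrays, by -0.98 and -0.77. Ccl11, another eotaxin, was well above background on the saline ZT2 array alone, and Ccl1 on the saline ZT14 array alone. Their bounds were at least 1.34-fold lower at ZT2 for Ccl11 and at least 1.20-fold lower at ZT14 for Ccl1, whose second probe was well above background on the saline ZT2 array instead.

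Of the 5 neutrophil-recruiting CXC ligands, Cxcl1 alone was measured. It read 11.7% with saline and 3.27% with vancomycin at ZT2, and 20.6% and 16.5% at ZT14. Cxcl1 was 3.57-fold lower at ZT2 and 1.24-fold lower at ZT14, and the ZT14 vancomycin array read above the ZT2 saline array. Cxcl2, Cxcl3, Cxcl5 and Cxcl15, and the neutrophil receptors Cxcr1 and Cxcr2, were not well above background on any array.

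The ligands of CXCR3 are induced by interferon. Cxcl9 read 19.0% with saline and 7.91% with vancomycin at ZT2, and 7.87% and 6.07% at ZT14. The saline ZT2 array stood above the other three, and the difference was -1.27 at ZT2 and -0.37 at ZT14. Cxcl10 read 73.2% and 57.6% at ZT2 and 49.5% and 45.0% at ZT14, with differences of -0.34 and -0.14. Both ZT2 arrays were above both ZT14 arrays for Cxcl10.

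The signal named Cxcl11 could not be assigned to that gene. Its brightest probe read 13200% with saline and 12700% with vancomycin at ZT2, and 38000% and 42900% at ZT14, and it shared 20 bases or more with 22 promoters and with 8 other probes of the array. No other member was represented by a probe that shared such bases with a promoter. Bases 17 to 41 of the probe are a stretch found in 9 of 32851 RefSeq promoters (0.0274%). They are shown because no other 25 bases of the probe were found in more promoters.
Cxcl11 probe stretch: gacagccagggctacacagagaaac
This stretch has the form of the common B1 short interspersed repeat of rodents. The second Cxcl11 probe, which shared bases with no promoter, read 323% and 326% at ZT2 and 619% and 825% at ZT14. Neither probe differed by 2-fold between vancomycin and saline.

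The homeostatic and mucosal ligands differed from one another in direction, with medians of -0.57 and -0.26. Ccl28, a mucosal ligand of CCR3 and CCR10 made by epithelia, read 3410% with saline and 1900% with vancomycin at ZT2, and 2200% and 1210% at ZT14. Both vancomycin arrays lay below both saline arrays, by -0.85 and -0.86, and limma gave -0.85 ± 0.14 (SE) with an adjusted p of 0.52. A second probe of Ccl28 differed by -1.11 and -1.17. The files place both Ccl28 probes on an unplaced contig of chromosome 13 in mouse build mm9.

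Ccl19, which guides dendritic cells and naive T cells through CCR7, read 86.6% with saline and 30.8% with vancomycin at ZT2, and 112% and 70.6% at ZT14. The groups did not overlap, and Ccl19 was 2.81-fold lower at ZT2 and 1.58-fold lower at ZT14. Ccr7, its receptor, read 9.98% and 3.28% at ZT2 and 6.20% and 5.14% at ZT14, 3.04-fold lower at ZT2 and 1.21-fold lower at ZT14. Ccl21a, the other CCR7 ligand, which lies outside the rule for names, read 69.9% and 17.2% at ZT2 and 121% and 94.7% at ZT14. For all 3 genes the ZT2 difference was further from 0 than the ZT14 difference, a contrast that was not tested. Cxcl13, which attracts B cells, read 6.24% with saline and 0.554%, not well above background, with vancomycin at ZT2, and 6.14% and 8.79% at ZT14. It was at least 2.77-fold lower at ZT2 and 1.43-fold higher at ZT14.

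Cxcl14, an epithelial chemokine, read 238% with saline and 194% with vancomycin at ZT2, and 270% and 132% at ZT14. Both vancomycin arrays were lower than both saline arrays, with differences of -0.29 and -1.03, and the 2-fold difference lay at ZT14. Cxcl12, the stromal ligand of CXCR4, read 963% and 933% at ZT2 and 1350% and 1490% at ZT14. Its differences of -0.04 and 0.14 were small, as were those of Cxcr4, 0.11 and -0.08, and of the scavenging CXCL12 receptor Ackr3, 0.02 and 0.07. Ccl25, the ligand of CCR9, was the ligand higher on both vancomycin arrays, at 79.7% and 99.9% at ZT2 and 97.1% and 110% at ZT14.

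The membrane-bound ligands gave small differences at ZT2. Cx3cl1 (fractalkine), the ligand of CX3CR1, read 564% with saline and 601% with vancomycin at ZT2, and 746% and 666% at ZT14, differing by 0.09 and -0.17. Cxcl16, the ligand of CXCR6, read 163% and 152% at ZT2 and 177% and 108% at ZT14, with both vancomycin arrays below both saline arrays. Xcl1, a lymphocyte ligand, was well above background with saline alone, and was at least 1.49-fold lower with vancomycin at ZT2 and at least 1.29-fold lower at ZT14.

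**Figure D2:**
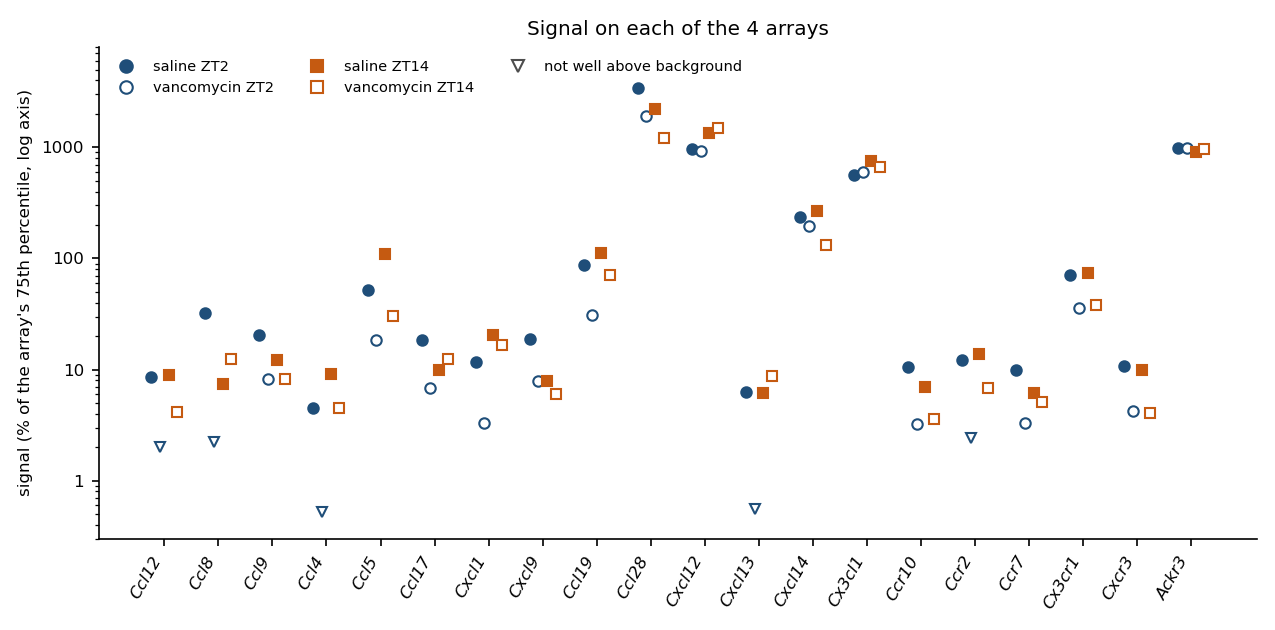
Signal on each array (percent of the array's 75th percentile, log axis) for the members with a 2-fold difference at either time and for Ccl28, Cxcl12, Cx3cl1, Cx3cr1 and Ackr3; filled symbols are saline, open symbols vancomycin, circles ZT2, squares ZT14, and triangles are arrays on which the probe was not well above background. Ccl5, Ccr2, Cx3cr1 and Cxcr3 are lower on both vancomycin arrays, whereas the 4 points of Ackr3 lie together between 917% and 991%.

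Among the typical receptors, Ccr2, Ccr7, Ccr10, Cx3cr1, Cxcr3 and Cxcr6 were lower on both vancomycin arrays than on both saline arrays. Other receptors of lymphocytes were not, since Ccr6 differed in direction between the times and Ccr8 was higher at both. Ccr2, the monocyte receptor of CCL2, read 12.2% with saline and 2.42%, not well above background, with vancomycin at ZT2, and 13.9% and 6.78% at ZT14. It was at least 5.07-fold lower at ZT2 and 2.05-fold lower at ZT14, without overlap. Cx3cr1, the fractalkine receptor, read 70.7% and 35.6% at ZT2 and 74.6% and 38.4% at ZT14. The vancomycin arrays were close to each other and below both saline arrays, at 1.98-fold and 1.95-fold lower, just under the 2-fold rule. A second Cx3cr1 probe differed by -1.17 and -1.18, and limma gave -0.97 ± 0.14 (SE) for Cx3cr1 with an adjusted p of 0.52.

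Cxcr3, the receptor of activated T cells for CXCL9, CXCL10 and CXCL11, read 10.7% with saline and 4.23% with vancomycin at ZT2, and 10% and 4.04% at ZT14. The 2 saline arrays lay together and the 2 vancomycin arrays lay together below them, 2.54-fold lower at ZT2 and 2.49-fold lower at ZT14. limma gave -1.33 ± 0.14 (SE) for Cxcr3, with an unadjusted p of 0.0028 and an adjusted p of 0.52. Ccr10, the skin and mucosal homing receptor of CCL27 and CCL28, read 10.6% and 3.23% at ZT2 and 6.97% and 3.61% at ZT14, 3.30-fold and 1.93-fold lower without overlap. Cxcr6, of resident lymphocytes, read 20.8% and 16.8% at ZT2 and 25.6% and 16.7% at ZT14, also without overlap, with differences of -0.31 and -0.62. A second Cxcr6 probe, well above background on all 4 arrays, differed by -0.92 and -0.63.

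The other CC receptors differed in direction or were not measured at both times. Ccr6, which acts on B cells and interleukin-17-producing T cells, read 13.5% and 9.32% at ZT2 and 8.23% and 13.6% at ZT14, so its differences were -0.54 and 0.73. Ccr9, the gut homing receptor, differed by -0.81 and 0.06, and Ccr8, of regulatory and type 2 T cells, by 0.67 and 0.07. Ccr3, the eotaxin receptor, was well above background on the ZT14 arrays alone, where it differed by 0.23. Ccr1, Ccr4, Cxcr5, Ackr1 and Ackr4 were not well above background on any array, nor were the ligands Ccl20, Ccl22, Ccl26 and Cxcl17. Of the scavenger Ackr2 the signals were 5.58% and 4.39% at ZT2 and 11% and 8.55% at ZT14, with differences of -0.35 and -0.36. Ccrl2, which presents chemerin, read 16.7% on both ZT2 arrays, 42.0% with saline at ZT14 and 23.5% with vancomycin at ZT14, so the saline ZT14 array alone stood high.

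**Figure D3:**
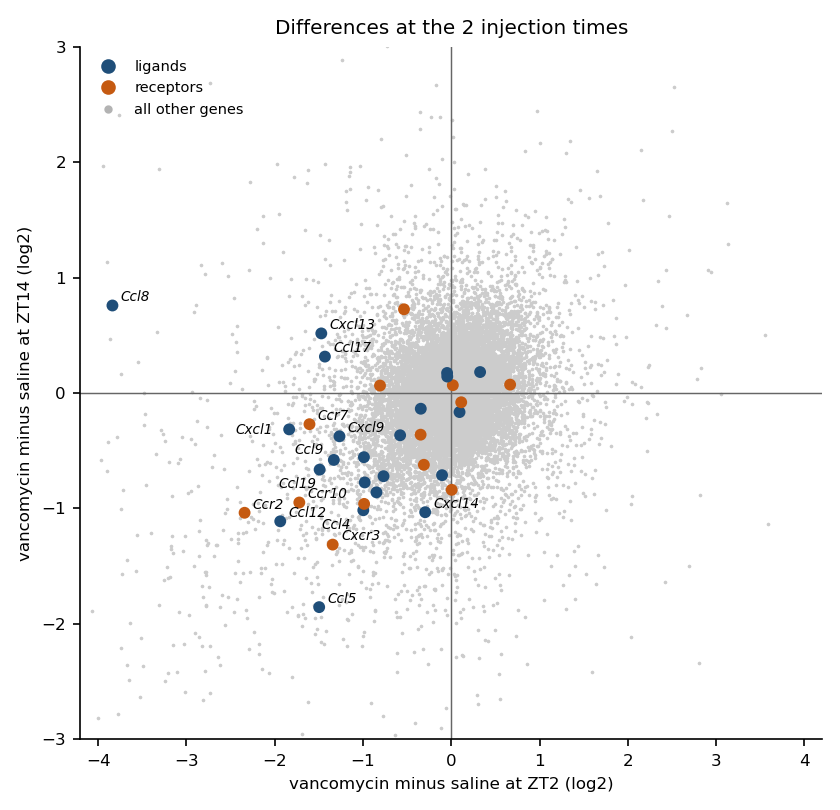
Vancomycin minus saline at ZT2 (log2, x axis) against ZT14 (log2, y axis) for the 35 members with a value at both times, ligands in blue and receptors in orange, over 22215 other genes in grey, of which 61 lie outside the axes. The labelled members have a 2-fold difference at either time, and Ccl5, Ccl12, Ccr2 and Cxcr3 are lower by 2-fold or more on both axes.

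Chemokine genes lie in clusters, and neighbours did not all give the same difference. On chr11:83339296-83478111 (mm9, from the positions of the probes), which holds Ccl5, Ccl9, Ccl6, Ccl3 and Ccl4, all 5 were measured. Ccl3 had no value at ZT2, and the other 4 were lower at both times. Over all genes 28.4% were lower at both times, and these clusters hold too few genes to compare their counts. The neighbouring cluster of Ccl2, Ccl7, Ccl11, Ccl12, Ccl8 and Ccl1 on chr11:81850650-81990510 had 5 of 6 members measured. Of these, 2 were lower at both times, Ccl8 was higher at ZT14, and Ccl11 and Ccl1 lacked a value at ZT14 and ZT2. The receptor cluster on chr9:123690334-124046639, which includes Ccr9, Cxcr6, Ccr1, Ccr3 and Ccr2, also had 5 of 6 measured. Of these, 2 were lower at both times, Ccr9 differed in direction, and the rest had no value at ZT2. Within that receptor cluster Ccr2 was 2-fold lower at both times, and its neighbour Ccr3 differed by 0.23 at ZT14. Whether a probe lies in an exon or a UTR was not analysed here.

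In the saline arrays, 4 of 40 members were higher at ZT14 than at ZT2 by 2-fold or more (Ccl4, Ccl5, Ccrl2 and Cxcl11), against 8.37% of all genes, and 2 of 40 were lower (Ccl8 and Cxcl9), against 3.46%. These were 10% and 5% of the members, near the shares of all genes. Ccl5 was 2.09-fold higher at ZT14, Ccrl2 2.52-fold higher, Ccl8 4.37-fold lower and Cxcl9 2.42-fold lower. The count of 6 was 2 with normexp, 10 without a filter on dim probes and 10 with measured values in place of bounds. These arrays lay on different slides.

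The genes that act with the chemokines were taken from 4 lists. Of the receptor signalling genes, 41 of 44 were measured, 22 of the 41 were lower at both times, beside 28.4% of all genes, and 4 higher, beside 29.0%, and the medians were -0.16 and -0.16. By limma 7 of them were lower (5.35% of all genes) and 0 higher (3.21% of all genes) at an unadjusted p under 0.05, and 0 passed an adjusted p of 0.05. Coro1a, an actin regulator of leukocytes, differed by -0.95 and -0.56. Pik3cg, the PI3-kinase that chemokine receptors activate, read 14.8% with saline and 1.09%, not well above background, with vancomycin at ZT2, and 7.64% and 4.91% at ZT14. Elmo1, which couples receptors to Rac, differed by 1.27 at ZT2 and -1.67 at ZT14, and Rgs14, a regulator of G protein signalling, by 1.40 and -1.78. These contrasts between the times were not tested.

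Of the genes that induce chemokines, 14 of 18 were measured, with medians of -0.15 and -0.29. Of these, 8 were lower at both times, beside 28.4% of all genes, and 1 was higher, beside 29.0%. Irf7, an interferon regulatory factor, differed by -0.88 and -0.61, and the bacterial sensor Tlr2 by -0.94 and -0.27. The endotoxin receptor gene Tlr4 differed by -0.20 and 0.43. Tnf, an inducer of many chemokines, read 18.8% and 14.3% at ZT2 and 27.1% and 25% at ZT14, differences of -0.40 and -0.12. Il1b read 3.31% and 10.2% at ZT2 and 4.82% and 3.03% at ZT14, higher with vancomycin at ZT2 and lower at ZT14. Il1a, Il6, Ifng and Il17a were not well above background on any array. In limma 1 gene of this list was lower, beside 5.35% of all genes, and 0 higher at an unadjusted p under 0.05, and 0 passed an adjusted p of 0.05.

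Of 16 adhesion molecules and glycosaminoglycan partners, 14 were measured, with medians of -0.25 and -0.13. Of the 14, 10 were lower at both times, beside 28.4% of all genes. Itga4, the integrin chain that binds VCAM1, differed by -0.80 and -0.61, and Sdc3, a syndecan, by -0.89 and -0.64. On the other side Ndst1, which sulphates heparan, differed by 0.21 and 0.12, and Itgam by 0.05 and 0.15, a value that Itgal and Sdc4 also reached at 1 time. Selectins Sele and Selp were not well above background on any array. Of a list of 16 further chemokine-system genes, which also names the member Cxcl15, 10 were measured, none of them a member. Their medians were -0.17 and -0.16. Of the 10, 5 were lower at both times, beside 28.4% of all genes, and 3 higher, beside 29.0%. Pf4, a platelet chemokine, read 58.5% and 25.5% at ZT2 and 41.6% and 19.1% at ZT14, differences of -1.20 and -1.13. Cmklr1, the chemerin receptor, was higher on both vancomycin arrays than on the saline array of the same slide, by 0.63 and 0.51, and Ccl27a, a ligand of CCR10, by 0.48 and 0.06. In limma the adhesion list had 2 genes lower and the last list 3 lower and 1 higher at an unadjusted p under 0.05, beside 5.35% of all genes lower and 3.21% higher, and 0 of either list passed an adjusted p of 0.05.

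Most markers of leukocytes were also lower with vancomycin. Of the 9 T cell markers, 8 were lower at both times, beside 28.4% of all genes, with medians of -0.69 and -0.34, and Cd3d read 14.1% and 6.86% at ZT2 and 17.7% and 9.26% at ZT14. Their summed signal was 605% and 557% at ZT2 and 864% and 735% at ZT14. The same 28.4% of all genes stands beside the counts of lower markers in the lists that follow. Of 7 natural killer and cytotoxic markers 5 were measured and 4 were lower at both times (medians -0.28 and -0.95, sums 41.0%, 29.6%, 87.5% and 54.4% in the same order), with Ncr1 and Gzmb not well above background. Of 7 dendritic cell markers 6 were measured and 4 were lower at both times (medians -1.10 and -0.21), with Xcr1 not well above background, and the sums of 2980%, 2510%, 16300% and 17500% were set by Siglech. Of 7 B cell markers 5 were measured and 3 of 4 were lower at both times (medians -0.35 and -0.53, sums 137%, 148%, 160% and 138%), with Cd79a and Blk not well above background.

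All 13 macrophage and monocyte markers were measured, with medians of -0.43 and -0.35. Of the 13, 8 were lower at both times, beside 28.4% of all genes, a share that also stands beside the neutrophil and endothelial counts. Lyz2 read 765% and 479% at ZT2 and 519% and 349% at ZT14, and Mrc1 28.3% and 18.5%, then 22.7% and 14.4%. On the other side 3 of the 13 were higher at both times, beside 29.0% of all genes. Cd14 differed by 0.20 and 0.15, Itgam by 0.05 and 0.15, and Ly6c2 by 0.21 and 0.14. The summed signal of the 13 markers, set by Ly6c2, Itgam and Csf1r, was 13300% and 14800% at ZT2 and 15900% and 16800% at ZT14, so the sum was higher where most markers were lower. Of 8 neutrophil markers 7 were measured, with Retnlg not well above background. Of the 7, 4 were lower at both times and 2 higher, the latter beside 29.0% of all genes (medians -0.26 and -0.02, sums 5530%, 5580%, 5670% and 6440%). Of the 8 endothelial markers 7 were lower at both times (medians -0.33 and -0.26, sums 2110%, 1630%, 2550% and 2100%). The part of these cells in the chemokine differences was not tested.

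Marker genes of tissues and cells from outside the kidney also differed between the arrays. Whether the samples held such tissue was not tested. The 9 kidney-defining genes were well above background on all 4 arrays, with medians of 0.10 and 0.15 and sums of 53400% and 61700% at ZT2 and 66600% and 69300% at ZT14. Of 8 adrenal genes 7 were measured (Mc2r was not well above background), and 6 were higher with vancomycin at both times, beside 29.0% of all genes. Their medians were 3.14 and 1.30 and their sums 62.6%, 640%, 69.1% and 126%. The 6 fat genes summed to 713% and 269% at ZT2 but to 52.6% and 50.8% at ZT14, with medians of -1.43 and, over the 3 with a value, -0.03. Of 6 erythroid genes 4 were measured, with medians of -0.89 and 0.25, sums of 3370%, 1110%, 3430% and 4250%. The summed fat and erythroid signals were lower with vancomycin at ZT2, and the summed adrenal signal was higher with vancomycin at both times. Members of the lists did not all follow the sums at ZT2: in the fat list Lep differed by 0.23 and Ucp1 was higher with vancomycin (a bound of 4.01 in log2), and in the erythroid list Hba-a1 and Alas2 differed by -2.09 and -2.45 but Slc4a1 and Klf1 by 0.31 and 2.78. The part of these tissues in the chemokine differences was not tested.

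**Figure D4:**
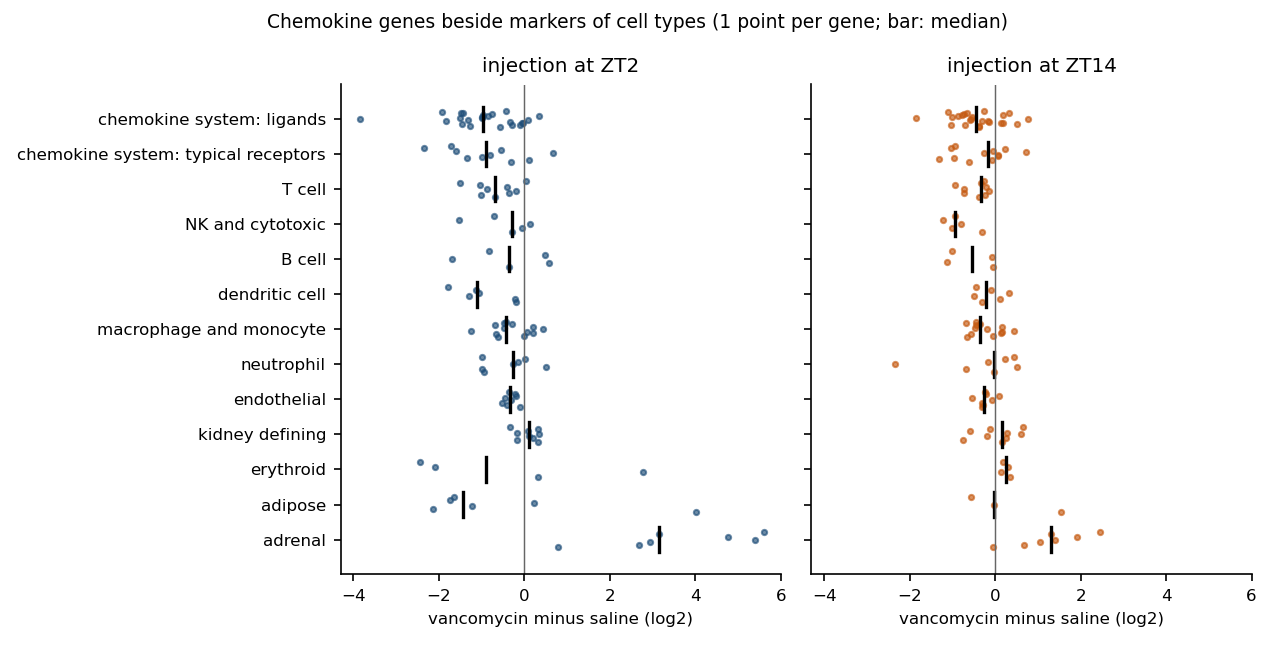
Vancomycin minus saline (log2, x axis) at ZT2 (left) and ZT14 (right) for each measured gene of the chemokine ligands and typical receptors and of 11 marker lists; points are genes, bounds included, and black bars are medians. The ligand and receptor medians are -0.98 and -0.90 at ZT2 and -0.46 and -0.18 at ZT14, beside 0.10 and 0.15 for the kidney-defining genes and 3.14 and 1.30 for the adrenal genes.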

How the data were processed

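Total RNA of 4 kidney samples was labelled with Cy3 and hybridized to Agilent 1-colour mouse arrays. Per the file headers, the authors read the images with Agilent Feature Extraction 10.7.1.1, and version 9.5.1.1 is given in the submitters' processing notes. The deposited processed signal is an intensity with background subtracted and no normalization between arrays. The authors also deposited a value table of linear intensity per probe, used here as an alternative. Each array holds 59305 spots, of which 60.59% to 64.75% were well above background and 0 were saturated. Here spots of a probe were averaged, log2 signals were centred on the array's 75th percentile, and a gene was represented by its brightest probe. Genes well above background on at least 1 array were kept. With 1 array per group, a difference was called at 2-fold. In these differences a dim value was replaced by a bound at the lowest signal well above background on its array (1.66% to 2.25% of the 75th percentile). limma used the signals as read, without bounds. The number of arrays limits the precision. limma 3.58.1 (R 4.3.3) was fitted to all 24638 genes with injection time as a term, Benjamini-Hochberg adjusted, and checked on simulated data. Members above background have values given, those past 2-fold on every array. Pathway lists are described by counts and medians, with the 2 largest differences each way at either time named, and further genes of these and the marker lists were named after their values were seen. The members and lists were chosen with earlier results of these data known. Promoters are from RefSeq, GRCm38.p6, and all 56 members matched that annotation by symbol. No genome was used. Alternatives covered background correction, centring, normalization, source of values, filters, probes, bounds, and the limma terms. Some single genes are not reported here by name and remain in the counts.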

Additional observations from a re-analysis of the deposited data

Results flagged for a closer look

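For 3 members vancomycin was lower than saline by 2-fold or more at ZT2 and higher by any amount at ZT14. Ccr6, Ccr9, Cxcl11 and Cxcl12 were also lower at ZT2 and higher at ZT14, but by less than 2-fold at ZT2. Changes of direction were common, since over all genes 28.4% were lower and 29.0% higher at both times. With 1 array per group the difference between times was not tested. Ccl8 was at least 14.3-fold lower at ZT2 and 1.69-fold higher at ZT14, a gap of at least 4.60 in log2. Cxcl13 was at least 2.77-fold lower at ZT2 and 1.43-fold higher at ZT14, a gap of at least 1.99. Ccl17 was 2.70-fold lower at ZT2 and 1.25-fold higher at ZT14, a gap of 1.75.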

How the results depend on the processing

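For the members past 2-fold at either time, 360 single values were recomputed under the alternatives. Of these, 317 stayed within the set limits or on the same side of the threshold, 43 moved and 0 reversed. The limma values over both times all counted as staying, since no member passed an adjusted p of 0.05 under any setting. Cxcl13 over both times, for example, went from -1.49 to -0.09 with normexp and still counted as staying. The 317 thus overstate stability, and most values at single times moved with normexp. Shares of all genes are not given here for the 2-fold counts under the alternatives. With normexp background correction the members lower by 2-fold or more numbered 3 at ZT2 and 1 at ZT14, the members differing between the saline arrays 2, and the medians -0.27 at ZT2 and -0.12 at ZT14. Without a filter on dim probes, 3 members at ZT2 and 1 at ZT14 were higher by 2-fold or more, 10 differed between the saline arrays, and the medians were -0.33 and -0.24. Measured values in place of bounds gave 10 members differing between the saline arrays and a median of -0.98 at ZT2. The mean over probes gave a median of -0.46 at ZT14, and probes above background on all 4 arrays gave 3 lower members there. Leaving out the member with the repeat probe, an alternative chosen after seeing the data, gave 13 lower members at ZT2, 6 at ZT14 and 5 between the saline arrays. In limma the count past an adjusted p of 0.05 was 0 under every alternative run, with 9 to 15 members at an unadjusted p under 0.05. The injection time term compares the arrays within each slide, and without it limma gave 9 members at an unadjusted p under 0.05 and a smallest adjusted p of 1.0. The labels give no replicate numbers, so no block by replicate was fitted. No array could be left out in turn, since 1 array is a whole group. Dim signal is a limit, since 11 of the 40 measured members were not well above background on every array.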

Other observations

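Several members had probes that did not give the same picture. The second Ccl1 probe read 4.70% with saline at ZT2, where it was well above background, and was not well above background on the other 3 arrays. The Cxcr6 probes differed by -0.31 and -0.92 at ZT2. The second Cxcl11 probe differed by 0.01 at ZT2 and 0.42 at ZT14 between vancomycin and saline, and neither Cxcl11 probe passed 2-fold.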
